A study of Mus musculus with 157 samples.

Results

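Rag1, Rag2 and Dntt, the 3 genes that carry out and diversify antigen receptor gene rearrangement, were followed through 157 mouse thymus and thymic lymphoma RNA-seq libraries. They were taken by gene symbol from 50686 genes in each deposited table, and each symbol matched 1 Ensembl identifier. No cut on measured values picked them, but earlier results of these data were known when they were chosen. The libraries fall into 23 groups in 2 sequencing runs, 12 groups (81 libraries) in an earlier run and 11 groups (76 libraries) in a later one. Levels are given as CPM, counts scaled within a run to library totals adjusted by TMM normalisation factors. They therefore differ from counts divided by the raw total. No level is compared between the runs.

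RAG1 and RAG2 form the recombinase that cuts DNA at the recombination signal sequences beside V, D and J segments. RAG1 holds the active site, and RAG2 is the partner that RAG1 needs for cutting and that binds methylated histone tails. Dntt encodes terminal deoxynucleotidyl transferase (TdT), which adds bases without a template to the opened coding ends before they are joined. In the thymus, CD4 and CD8 double negative (DN) cells rearrange Tcrb, Tcrg and Tcrd, mainly at the DN2 and DN3 stages, and double positive (DP) cells rearrange Tcra.

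The labels give the genotypes as RERT2-Cdc20(+/D), called the control in the series title, and RERT2-Cdc20(D/AAA), called aneuploid there. Cdc20 activates the anaphase-promoting complex in mitosis and is the target of the spindle checkpoint. Both genotypes carry the D allele, so no group labelled with a Cdc20 genotype has 2 ordinary Cdc20 alleles. The labels do not spell out D, AAA or RERT2, and they give no age, sex, treatment or line for the mice. In the earlier run, sorted non-tumoral DN1 (n = 6), DN2 (8), DN3 (8), DN4 (8) and DP (7) cells were +/D, and DN1 (9), DN2 (1), DN3 (5), DN4 (6) and DP (11) cells were D/AAA. The same run held early tumours of D/AAA mice, 5 of sorted DP cells and 7 unsorted. In the later run, whole non-tumoral thymus was +/D (6), D/AAA (9), +/D with MYCChr6 (2) or D/AAA with MYCChr6 (3). The tumours of the later run were RERT2-Cdc20(D/AAA) alone (22), with p53(+/D) (10) or with MYCChr6 (3), LCK-Cdc20(D/AAA) with MYCChr6 (14), LCK-Cdc20(+/D) with MYCChr6 (4), CD4-Cdc20(D/AAA) with MYCChr6 (2) and p53(-/-) with no Cdc20 genotype stated (1). Lck and Cd4 promoters are widely used to drive Cre in thymocytes, but the labels say neither that the prefixes stand for them nor what MYCChr6 is. Tumours were not sorted unless labelled, and nothing says whether libraries of 1 group came from separate mice, so the p-values measure the spread between libraries, part of which may be technical.

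Rag1 and Rag2 lie side by side on chromosome 2 and are read in opposite directions. In GRCm38, Rag1 (ENSMUSG00000061311) spans chr2:101638282-101649501 on the minus strand, with 6.61 kb of exon in 1 transcript. Rag2 (ENSMUSG00000032864) spans chr2:101624718-101632529 on the plus strand, with 3.42 kb of exon, and its start is 24783 bp from that of Rag1. Dntt (ENSMUSG00000025014) spans chr19:41029275-41059525 on the plus strand, with 2.29 kb of exon. B230118H07Rik, at chr2:101560781-101649532 on the minus strand, runs across both Rag genes and shares 80 bp of exon with Rag1 (1.21% of its exonic length) and 208 bp with Rag2 (6.07%). The counting's strand setting is not given in the sources used here, so reads from those shared bases cannot be assigned to 1 gene with certainty.

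Among +/D stages the medians of Rag1 and Rag2 were highest at DP and that of Dntt at DN2. The Dntt ranges at DN2, DN3 and DP overlapped. Its difference between DN2 and DN3 did not pass, and DP was not tested against DN2. The 250 bases before the RefSeq start of each gene (GRCm38.p6) are shown so that a reader can set the sequence beside these stage patterns. Each is written 5′ to 3′ in the gene's own direction, and capitals mark matches, on either strand, to any of 4 motifs. They are the E box, written CANNTG, the core sequence bound by Runx factors, written TGTGGT, the motif of the factors of that name, GATA, and the promoter element known as the CCAAT box. The windows are chr2:101649533-101649782 (minus strand) for Rag1, chr2:101624462-101624711 (plus strand) for Rag2 and chr19:41029025-41029274 (plus strand) for Dntt.
Rag1: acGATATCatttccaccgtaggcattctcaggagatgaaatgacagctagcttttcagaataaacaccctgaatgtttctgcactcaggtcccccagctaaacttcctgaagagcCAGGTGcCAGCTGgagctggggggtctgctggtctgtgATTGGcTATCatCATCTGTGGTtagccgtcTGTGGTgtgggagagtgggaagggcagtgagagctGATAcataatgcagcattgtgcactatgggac
Rag2: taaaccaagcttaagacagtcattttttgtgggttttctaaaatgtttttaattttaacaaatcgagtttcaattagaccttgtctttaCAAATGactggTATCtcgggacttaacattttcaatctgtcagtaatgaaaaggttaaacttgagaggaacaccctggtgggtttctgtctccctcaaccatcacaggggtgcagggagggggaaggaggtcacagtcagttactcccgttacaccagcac
Dntt: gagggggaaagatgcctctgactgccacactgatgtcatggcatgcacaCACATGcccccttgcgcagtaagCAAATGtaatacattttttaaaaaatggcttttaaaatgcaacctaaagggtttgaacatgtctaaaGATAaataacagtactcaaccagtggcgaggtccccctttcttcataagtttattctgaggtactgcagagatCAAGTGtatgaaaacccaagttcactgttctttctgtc

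The Rag1 window held 3 E boxes (135, 128 and 85 bases before the start), 2 Runx cores (81 and 67), 4 GATA matches (248, 246, 91 and 32) and 1 CCAAT match (97). The E box at 85 bases overlaps the Runx core at 81. The Rag2 window held 1 E box (161 bases) and 1 GATA match (150), and the Dntt window held 3 E boxes (201, 178 and 38) and 1 GATA match (111). Among 32851 promoter windows of the same length, 66.2% held an E box, 14% a Runx core, 53.6% GATA and 33.8% CCAAT, so a Runx core was the least common of the 4. TATAAA, found in 12.4% of windows, matched in none of the 3. These are matches of letters, not measured binding.

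Totals ran from 2701382 to 11595463 counts in 80 of the 81 earlier libraries and from 1708619 to 8009572 in the later run. The remaining library, labelled DN1 D/AAA replicate 8, held 21199 counts. Its 5 Rag1, 8 Rag2 and 11 Dntt counts are worth 153.7, 245.9 and 338.1 CPM, and DN1 D/AAA levels are therefore given by their median and without it. DP +/D libraries carried the DP markers (Cd4, Cd8a, Cd8b1, Arpp21, Cd1d1) at a summed 6893 to 9727 CPM, against 67.54 to 822.5 in the DN1, DN2, DN3 and DN4 +/D libraries. Mean Trp53 levels per kb of exon were 3.4 CPM in the p53(+/D) tumours and 4.38 in the p53(-/-) tumour, against 40.4 in RERT2 D/AAA tumours. In bulk RNA, fewer cells of a type and less RNA per cell cannot be told apart, which holds for every group difference below.

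In sorted +/D cells, Rag1 and Rag2 were close to the counting floor at DN1, Dntt was low but counted in every library, and all 3 rose at DN2. Rag1, the catalytic subunit, had a median of 0.35 CPM at DN1 (range 0 to 1.41, n = 6) and 43.9 at DN2 (21.04 to 105, n = 8). Rag2 had a median of 0.77 CPM at DN1 (0 to 6.43) and 80.3 at DN2 (47.3 to 101). Dntt went from 10.9 CPM (3.56 to 54.4) to 2090 (1664 to 2612). Every DN2 library lay above every DN1 library for each gene. The log2 differences were 6.60 ± 0.68 (SE) for Rag1, 5.68 ± 0.46 for Rag2 and 6.85 ± 0.44 for Dntt, with edgeR adjusted p of 5.2e-10, 6.9e-13 and 3.3e-15. In this comparison 48.5% of 15278 genes passed the same threshold, 24.6% as higher and 23.9% as lower, so passing was common. The DN1 libraries also carried natural killer and innate lymphoid markers (Ncr1, Klrb1c, Nkg7, Eomes, Tbx21) at a summed 2729 to 3713 CPM, against 168.6 to 477.2 at DN2. Mean Trac, the constant region of the Tcra chain, was 896 CPM at DN1, 2.99 at DN2 and 738 at DP. At DN2, 6 of 6 myeloid and dendritic markers were lower. Of 7 B lineage markers 5 were lower and 2 higher, and of 5 mature thymocyte markers 4 were lower and 1 higher. The part of such cells in this and later differences between DN1 and DN2 was not tested.

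Rag1, Rag2 and Dntt did not pass the test between DN2 and DN3, where 4.35% of genes did. At DN3, Rag1 had a median of 72.3 CPM (23.9 to 166.5, n = 8), Rag2 77.8 (53.3 to 138) and Dntt 1686 (1254 to 2052). All 3 ranges overlap those at DN2. The log2 differences were 0.76 ± 0.41, 0.13 ± 0.30 and -0.33 ± 0.30, with adjusted p of 0.418, 0.936 and 0.743. Rag1 was the most uneven of the 3 among DN3 libraries, with 4 of 8 between 23.9 and 52.7 CPM and 4 between 92.0 and 166.5.

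From DN3 to DN4, the step at which cells with a working Tcrb chain expand, Rag1 fell by 1.47 ± 0.41 on the log2 scale (adjusted p = 0.0122). Its median at DN4 was 25.8 CPM (19.9 to 49.1, n = 8), and only 2 of the 8 DN4 libraries lay below every DN3 library. Rag2 had 51.6 CPM (46.2 to 67.7), a log2 difference of -0.73 ± 0.31 (adjusted p = 0.110). Dntt had 979 CPM (715 to 1664), a difference of -0.77 ± 0.30 (adjusted p = 0.0804), with 7 of 8 DN4 libraries below every DN3 library. In this comparison 15% of genes passed, 7.47% as higher and 7.53% as lower. The calls moved with the fit. With all groups of the run in 1 model Rag1 no longer passed (-1.41, adjusted p = 0.188, against a range of 0.00811 to 0.188 over its alternatives), while with only the 2 stages in the model Rag2 (-0.74, adjusted p = 0.00387) and Dntt (-0.78, adjusted p = 0.000978) passed, their alternatives spanning 0.00387 to 0.645 and 1.2e-05 to 0.609.

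From DN4 to DP both recombinase genes rose again and exceeded their DN2 and DN3 medians. The 7 DP libraries had Rag1 at 609.0, 197.8, 618.5, 191.9, 617.1, 257.9 and 651.0 CPM. They thus formed a set of 4 above 600 CPM and a set of 3 below 260, which neither Rag2 nor Dntt shared. Rag2 in the same libraries was 508.3, 219.5, 296.8, 376.8, 247.2, 349.8 and 456.0 CPM, and Dntt was 2177, 1287, 1308, 1961, 1693, 1825 and 2057. Every DP library exceeded every DN4 library for Rag1 (log2 difference 3.93 ± 0.46, adjusted p = 6.8e-09) and Rag2 (2.80 ± 0.33, adjusted p = 5.8e-09). Dntt rose by 0.89 ± 0.31 (adjusted p = 0.0161), with 5 of 7 DP libraries above every DN4 library. Its call was lost without the low-count filter (0.80, adjusted p = 0.0617) and with all groups of the run in 1 model (0.79, adjusted p = 0.367), over a range of 1.29e-06 to 0.367 for its alternatives. Here 49.5% of genes passed, 24.5% as higher and 25% as lower.

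The median of Dntt at DN2 was above that at DP, while those of Rag1 and Rag2 were below, and the proportions of the 3 genes differed between DN3 and DP. The mean log2 ratio of Dntt to Rag2 (each CPM + 1) was 4.31 ± 0.31 (SD, n = 8) at DN3 and 2.35 ± 0.24 (n = 7) at DP, and every DP library lay below every DN3 library (exact permutation test, 2-sided, p = 0.000155, adjusted over 12 ratio tests 0.00187). Dntt to Rag1 went from 4.63 ± 1.07 to 2.13 ± 0.83 (exact permutation p = 0.000622, adjusted 0.00373). Rag2 to Rag1 differed by -0.55 and did not pass (exact permutation p = 0.248, adjusted 0.380). Per kb of exon, the mean level at DN3 was 12.7 CPM for Rag1, 25.0 for Rag2 and 723 for Dntt, and at DP it was 68.0, 102 and 767.

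**Figure D1:**
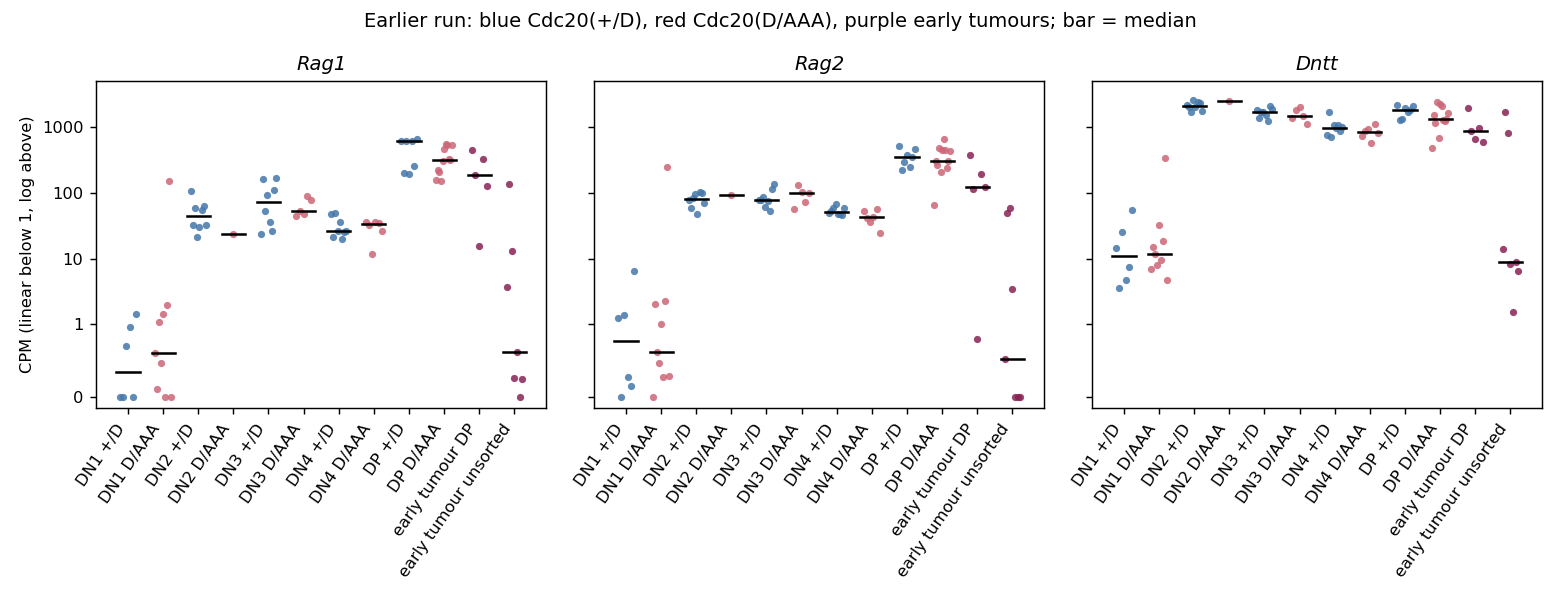
CPM of Rag1, Rag2 and Dntt in each library of the earlier run (vertical axis, linear below 1 and logarithmic above), by sorted stage, genotype and early tumour group, with points for libraries and bars for group medians. Among +/D stages the median of Dntt is highest at DN2 (2090 CPM) and lower at DN4 (979), those of Rag1 and Rag2 are highest at DP, and the 7 unsorted early tumours run from 0 to 134.0 CPM of Rag1.

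The genes that work with RAG and TdT were followed by lists. At DN2 against DN1, both RAG cofactors rose, Hmgb1 by 1.85 ± 0.16 and Hmgb2 by 2.13 ± 0.24 (log2), the DNA-bending proteins that help RAG hold its paired signals. Of 8 end joining genes 3 rose and 1 fell, close to the shares of all genes that passed (24.6% higher and 23.9% lower). Xrcc6, which encodes Ku70, rose by 2.81 ± 0.13, and Lig4, the ligase that seals the ends, by 2.502 ± 0.283, while Paxx fell by 0.95 ± 0.20. Of 8 break response genes 5 rose, among them H2afx (2.30) and Nbn (1.14). Of 5 family X polymerases and TdT-interacting proteins 1 rose and 2 fell (median 0.09). The 2 were Polm and Poll, polymerases of the same family as TdT that fill gaps at joined ends, which fell by 3.39 ± 0.49 and 1.79 ± 0.73. The medians were 1.99 for the cofactors and 0.18 for end joining, against 0.00 over all genes. All 6 cycling genes rose too (summed 65.9 to 150 CPM at DN1, 489 to 1903 at DN2), and their part in these counts was not tested.

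Of 11 transcription factors known to act on the Rag locus, 5 rose and 5 fell at DN2, where 24.6% of all genes were higher and 23.9% lower, with a median of -0.34. Myb rose by 4.92 ± 0.23 and Runx1 by 2.80 ± 0.18, while Foxo1 fell by 3.13 ± 0.29 and Ets1 by 1.10 ± 0.18. At DP against DN4 the same list had 9 higher and none lower (median 0.95, against 24.5% and 25% of all genes), led by Myb (2.30 ± 0.19) and Satb1 (2.05 ± 0.12), the latter a chromatin organiser of thymocytes. Between DN3 and DN4, Foxo1 (1.56 ± 0.27) and Satb1 (1.51 ± 0.11) rose as Runx1 (-1.59 ± 0.16) and Myb (-1.07 ± 0.18) fell, among 2 higher and 4 lower, against 7.47% and 7.53% of all genes. The list thus moved in mixed directions at DN2 and DN4, and every member that passed at DP was higher. Hmgb1 (0.42 ± 0.14), Hmgb2 (0.67 ± 0.21) and Trac (3.81 ± 0.22) also rose at DN4.

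At DP, 6 of 8 end joining genes rose and 1 fell (median 1.15, against 0.01 over all genes), where 24.5% of all genes rose and 25% fell, the shares behind each count here. Dclre1c, which encodes Artemis, the nuclease that opens the hairpin coding ends, rose by 2.73 ± 0.26, and Paxx by 1.68 ± 0.19, while Xrcc5, which encodes Ku80, fell by 1.46 ± 0.22. Of 5 family X polymerases and TdT-interacting proteins 1 rose, Polm by 1.18 ± 0.44, and 1 fell. Of the break response genes 5 fell, Nbn by 1.59 and Rif1 by 1.10. Of 5 genes of RAG protein turnover, which couples RAG2 destruction to the cell cycle, 4 fell, Cks1b by 1.81 ± 0.24 and Skp2 by 1.20 ± 0.26. Of the cycling genes 3 of 6 fell in the same comparison. Trac, the constant region of the chain that DP cells rearrange, rose by 2.81 ± 0.21 and Trdc fell by 2.02 ± 0.16.

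At the chromosome 2 locus the 4 neighbours did not move as a block. B230118H07Rik, which overlaps both Rag genes, rose at DN2 (5.52 ± 0.45), at DN3 (1.15 ± 0.28) and at DP (2.31 ± 0.29). Its mean level went from 0.35 CPM at DN1 to 15.5, 34.0, 24.8 and 115 at DN2, DN3, DN4 and DP. Prr5l went the other way at DN2 (-5.42 ± 1.06) and DP (-6.00). Traf6, the nearest gene on the Rag1 side, rose at DP by 0.62.

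No difference between Cdc20 genotypes passed the test for Rag1, Rag2 or Dntt at any sorted stage where it could be run. At DN3 the 5 D/AAA libraries had Rag1 at 44.3, 52.8, 48.1, 89.7 and 76.8 CPM, inside the +/D range. Their Rag2 was 57.1, 132.5, 102, 73.0 and 101 CPM and their Dntt 1387, 1816, 2025, 1460 and 1113. The log2 differences from +/D at DN3 were -0.40 ± 0.45, 0.15 ± 0.23 and -0.07 ± 0.15. At DN4, D/AAA means were 29.4 ± 9.34, 42.3 ± 11.4 and 843 ± 187 CPM (SD, n = 6), with differences of -0.04 ± 0.28, -0.29 ± 0.18 and -0.20 ± 0.18. At DP, D/AAA medians were 315 CPM for Rag1 (149 to 559, n = 11), 304 for Rag2 (64.2 to 654) and 1325 for Dntt (485 to 2427), with differences of -0.34 ± 0.31, 0.04 ± 0.29 and -0.22 ± 0.24. Adjusted p lay between 0.738 and 0.995 for these 9 differences. The earlier run's libraries form 2 blocks by the numbers in their titles and a step in depth, which the labels do not call a batch. Every +/D library is in the first block, with 5 of the 11 D/AAA DP libraries. Those 5 had Rag1 at 149.4 to 303.6 CPM and the other 6 at 314.8 to 559.4, without overlap, and all 11 lay below the +/D median of 609.0. Within the first block the DP differences were -1.08 ± 0.34 for Rag1 (adjusted p = 0.347), -0.39 for Rag2 and -0.46 for Dntt, and none passed. They were -0.51, 0.092 and 0.0104 at DN3 and -0.081, -0.27 and -0.34 at DN4.

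Few genes of any kind passed in these comparisons. The share was 0% of 12912 genes at DN3, 0.0081% of 12348 at DN4 and 0.00803% of 12451 at DP. At DN3, edgeR gave 549 genes with an unadjusted p under 0.05, and DESeq2 and limma voom called 13 and 2 genes. Rag1 and Rag2 were too low at DN1 for the filter, so only Dntt was tested there (0.12 ± 0.88, adjusted p = 1). Its DN1 difference became -0.46 without the shallow replicate 8. At DN1 0% of 12822 genes passed in edgeR, with 353 at an unadjusted p under 0.05, and DESeq2 called 8 and limma voom 0. The single D/AAA DN2 library had 23.8 CPM of Rag1, 93.1 of Rag2 and 2514 of Dntt, and allows no test. A test of whether the genotype difference depends on the stage gave adjusted p of 1 for each of the 3 genes, where 0.134% of 16403 genes passed. The D/AAA DN4 libraries also held globin and Alas2 transcripts at a summed 1822 to 37080 CPM, against 118.3 to 3180 in +/D, and the part of this in the DN4 values was not tested.

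Sorted DP early tumours spread widely in recombinase level. Rag1 was 454.3, 183.8, 15.65, 327.7 and 127.1 CPM in replicates 1 to 5, Rag2 was 374.2, 114.3, 0.796, 190.1 and 124.3, and Dntt was 1955, 876, 660, 973 and 592. Replicate 3 was the lowest in Rag1 and Rag2, with Dntt within the range of DP D/AAA cells. The log2 differences from DP D/AAA were -0.65 ± 0.49, -1.13 ± 0.68 and -0.55 ± 0.35, and none passed (adjusted p = 0.441, 0.325 and 0.353). All 5 tumours are in the second block, with 6 of the 11 DP D/AAA libraries. Within it the differences were -1.05, -1.40 and -0.7004 (adjusted p = 0.249, 0.291 and 0.161). Over all alternatives they ran from -1.12 to -0.33, -2.05 to -0.80 and -0.91 to -0.404, and none passed. In edgeR 0% of 12245 genes passed, with 2719 at an unadjusted p under 0.05, while DESeq2 called 855 genes and limma voom 2125. The ratio of Dntt to Rag2 was higher by 1.56 (log2) and did not pass after adjustment (exact permutation p = 0.0204, adjusted 0.0815). Summed DP markers were 8983, 3510.0, 2200.0, 3323 and 2327 CPM in the 5 tumours, so the tumours highest and lowest in this sum were also highest and lowest in Rag1, and the share of cells behind it was not tested.

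The 7 unsorted early tumours were not alike, which bears on every value for them. Replicates 1, 4, 5, 6 and 7 had natural killer markers at a summed 1850 to 4352 CPM, B lineage markers at 253.9 to 1719 and cycling genes at 27.97 to 128.8. Replicates 2 and 3 had 72.54 and 65.6, 33.98 and 26.6, and 1461 and 2212 CPM for the same lists. The DP marker sum was 57.31 to 549.9 CPM in all 7, against 3470.0 to 9298 in sorted DP D/AAA cells. No DP marker was at 0 in all 7. Globin and Alas2 transcripts summed to 23390.0 CPM in replicate 3, against 0.774 to 790.5 in the others.

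Rag1 in the 7 was 3.73, 134.0, 12.85, 0.26, 0.62, 0 and 0.26 CPM, and Rag2 was 0.53, 50.03, 58.3, 3.39, 0, 0 and 0. Dntt was 13.8, 1701, 820, 8.34, 1.55, 8.92 and 6.45 CPM. The libraries with cycling genes and few natural killer transcripts, 2 and 3, were thus the ones with the most Rag1, Rag2 and Dntt. Their DN2 and DN3 marker sum (Il2ra, Ptcra, Kit, Dtx1, Notch3) was 1280.0 and 193.7 CPM, against 35.39 to 189.8 in the other 5 and 836.1 to 2082 in sorted DN2 and DN3 +/D cells. Against sorted DP D/AAA cells Rag1 fell by 3.93 ± 1.07 and Rag2 by 4.42 ± 1.05 (adjusted p = 0.00936 and 0.00385), with 7 of 7 libraries below every DP library. Dntt differed by -1.98 ± 1.06 and did not pass (adjusted p = 0.174). It passed without replicate 2 (-3.36, adjusted p = 0.0296) over alternatives from 1.3e-07 to 0.269. Here 29.1% of 11904 genes passed, 15.9% as higher and 13.2% as lower. Without replicate 2 the Rag1 difference was -6.81. Medians in the 7 were 0.62 CPM for Rag1, 0.53 for Rag2 and 8.92 for Dntt. In sorted non-tumoral DN1 D/AAA cells they were 0.61, 0.62 and 11.6 CPM, so levels this low were not particular to tumours. Median Nkg7 was 2668 CPM in the 7 and 2330 in those DN1 cells. The part of the other cell types in these differences was not tested.

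In the same comparison, where 15.9% of all genes rose and 13.2% fell, 4 of 5 DP markers fell (median -6.28), with Cd4 at -7.01 ± 0.57. Of 5 natural killer genes 3 were tested and all 3 rose, Nkg7 by 9.39 ± 0.81. Of 7 B lineage genes 5 were tested and 4 rose. Genes low in sorted DP cells can pass the low-count filter through the unsorted tumours alone, so these counts carry little weight. Of the 11 transcription factors 5 fell and none rose, Myb by 2.85 ± 0.87 and Satb1 by 2.66 ± 0.28. Of the end joining genes 4 fell, Lig4 by 2.19 ± 0.57 and Xrcc6 by 1.86 ± 0.47, and Xrcc5 rose by 1.21.

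**Figure D2:**
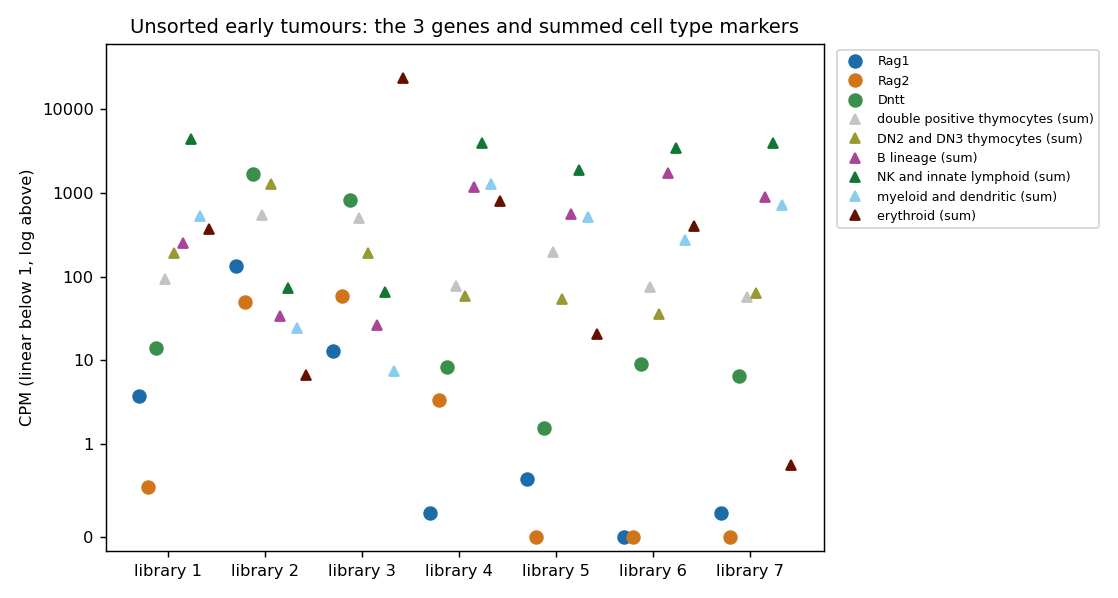
CPM in each of the 7 unsorted early tumours (horizontal axis, replicates) of the 3 genes and of 6 summed marker lists (vertical axis, linear below 1 and logarithmic above). Replicates 2 and 3 carry Dntt at 1701 and 820 CPM with natural killer markers at 72.54 and 65.6, and the other 5 carry 1.55 to 13.8 CPM with natural killer markers at 1850 to 4352.

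In the later run, whole +/D thymus had Rag1 at 842.6, 882.8, 798.9, 958.6, 637.8 and 733.6 CPM, and with the +/D MYCChr6 thymi (895.3 and 778.6) this group had the highest medians of that run. Rag2 in the 6 +/D thymi had a mean of 98.8 ± 26.5 CPM (SD) and Dntt 335 ± 44.9. Per kb of exon the 3 means were 122, 28.9 and 146 CPM. Whole D/AAA thymus had medians of 578 CPM for Rag1 (161 to 1039, n = 9), 49.4 for Rag2 (20.8 to 113) and 214 for Dntt (171 to 358).

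None of the thymus differences passed. They were -0.51 ± 0.32 for Rag1, -0.67 ± 0.28 for Rag2 and -0.61 ± 0.16 for Dntt, with adjusted p of 0.690, 0.544 and 0.382. For Dntt, 8 of 9 D/AAA thymi lay below every +/D thymus, and its unadjusted p of 0.00106 ranked 28 among 11044 genes. In edgeR 0% of those genes passed, 907 had an unadjusted p under 0.05, and DESeq2 called 49 and limma voom 1. The DP marker sum was 2423 to 2938 CPM in +/D and 475.3 to 2864 in D/AAA thymus. Replicate 7, lowest in that sum, was also lowest in Rag1 and Rag2. The 3 D/AAA MYCChr6 thymi had Rag1 at 269.9, 495.8 and 519.5 CPM, Rag2 at 31.8, 91.8 and 78.8, and Dntt at 177.1, 396.9 and 397.0.

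All 3 genes fell in RERT2 D/AAA tumours relative to +/D thymus. Rag1 had a median of 119 CPM in the 22 tumours (0.54 to 210), Rag2 8.63 (0 to 31.0) and Dntt 80.8 (0 to 429). Rag1 was lower by 2.85 ± 0.44 (log2, adjusted p = 8.8e-06) and Rag2 by 3.15 ± 0.51 (adjusted p = 1.6e-05), with 22 of 22 tumours below every +/D thymus for both. Dntt fell by 1.66 ± 0.50 (adjusted p = 0.00932), with 21 of 22 below. In this comparison 41.5% of 12381 genes passed, 22.4% as higher and 19.1% as lower.

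Against D/AAA thymus, which shares the tumours with the comparison above, Rag1 fell by 2.33 ± 0.42 (adjusted p = 8.9e-05) and Rag2 by 2.48 ± 0.47 (adjusted p = 0.000154), with 17 of 22 tumours below every thymus. Dntt differed by -1.05 ± 0.44 and did not pass (adjusted p = 0.0609), with 18 of 22 below. It passed without tumour replicate 11 or 16, in DESeq2 and with other scaling factors, over alternatives with adjusted p from 0.0171 to 0.129. Here 34.9% of 11634 genes passed, 18.1% as higher and 16.8% as lower. Of 5 DP markers 3 were lower and 2 not called in tumours against D/AAA thymus (median -0.69), where 16.8% of genes were lower. Against +/D thymus, where 19.1% of genes were lower, 5 of 5 were lower (median -1.24, Cd4 by 1.91 ± 0.32). These markers summed to 226.8 to 1724 CPM in the tumours, and their part in the fall was not tested.

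Among these 22 tumours a few were at or near 0 for some of the 3 transcripts and not for the others. Replicate 8 had 3 Rag1 counts and 1 Rag2 count among 5334685, and replicate 11 had 22 and 0 among 4728200, yet their Dntt stood at 125.4 and 212.5 CPM, above the group median. The other 20 tumours had at least 44.6 CPM of Rag1. Replicate 16 was the reverse, with no Dntt count among 5542751, Rag1 at 148.2 CPM and Rag2 at 7.79. Over that raw total, without the TMM factor, 3 counts would be 0.541 CPM. Replicate 22 had the most Dntt, 429.3 CPM, with Rag1 at 194.2 and Rag2 at 2.38.

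The DP marker sum was 226.8 CPM in replicate 8, the lowest of the 22, 782.8 in replicate 11, 1584 in replicate 16 and 975.2 in replicate 22. The DN2 and DN3 marker sum was 68.8, 3.44, 234.6 and 298.5 CPM in the same libraries, with replicate 11 the lowest of all. These 4 libraries were singled out after their values were seen.

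**Figure D3:**
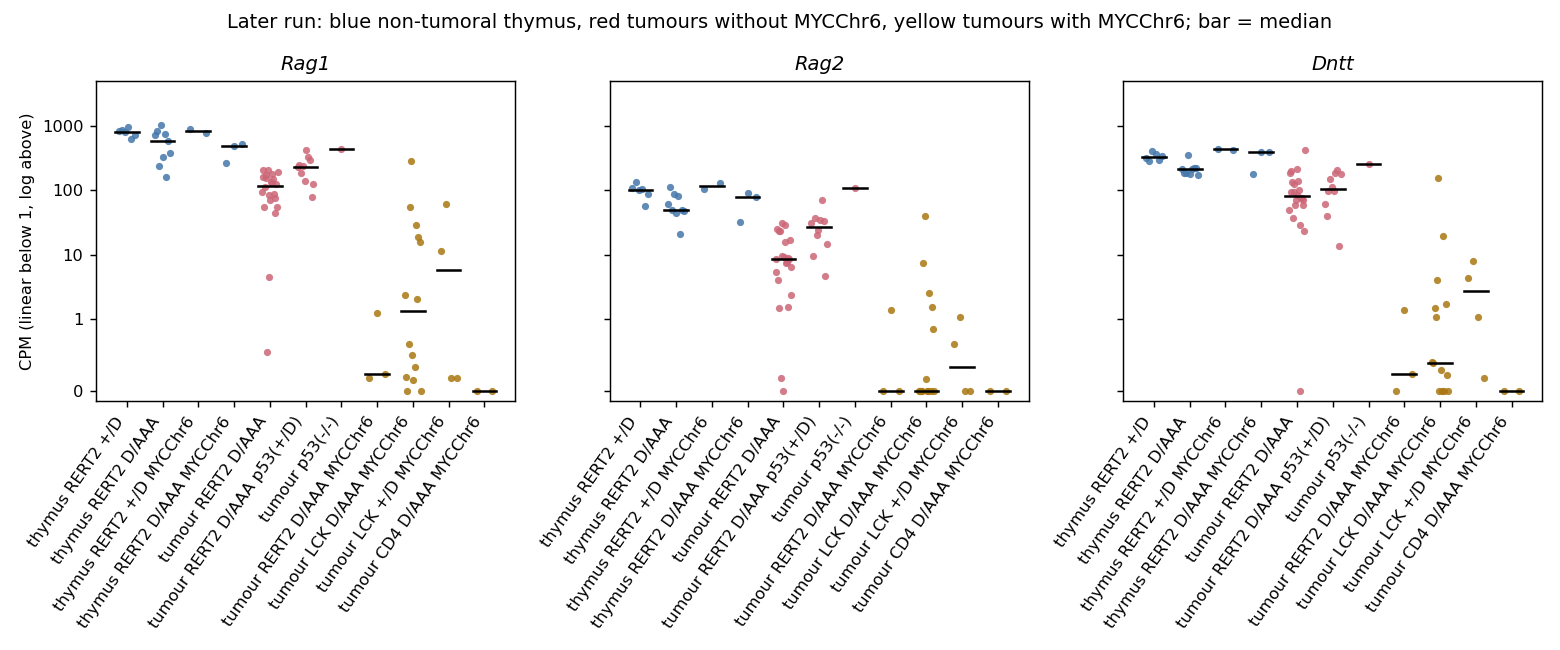
CPM of Rag1, Rag2 and Dntt in each library of the later run (vertical axis, linear below 1 and logarithmic above), by thymus and tumour group, with points for libraries and bars for medians. The +/D thymi lie above all RERT2 D/AAA tumours for Rag1 and Rag2, a few of those tumours are near 0, and most MYCChr6 tumours are below 3 CPM for each gene.

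The rest of the pathway was not uniformly lower in RERT2 D/AAA tumours than in +/D thymus, where 22.4% of all genes rose and 19.1% fell. Of the end joining genes, Xrcc6 (1.35 ± 0.21) and Xrcc5 (1.27 ± 0.33) rose and 3 fell, Dclre1c by 1.08 ± 0.24, Paxx by 1.02 ± 0.22 and Lig4 by 0.66. Polm fell by 0.99 ± 0.27. In RAG protein turnover 3 of 5 genes rose, Cks1b by 1.60 ± 0.17 and Skp2 by 1.27 ± 0.26, with 6 of 6 cycling genes. Of the 11 transcription factors 6 fell and none rose (median -0.63, against 0.05 over all genes), led by Satb1 (-1.86 ± 0.20) and Foxp1 (-1.02 ± 0.25). B230118H07Rik fell by 2.07 ± 0.47, and Traf6 (-0.39 ± 0.21) and Commd9 (0.62 ± 0.28), further along the chromosome, did not pass.

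Rag1, Rag2 and Dntt did not pass the test between p53(+/D) tumours and RERT2 D/AAA tumours. Rag1 had a median of 234 CPM (78.9 to 427, n = 10), Rag2 27.4 (4.63 to 70.2) and Dntt 106 (13.6 to 204). For both Rag1 and Rag2, 9 of 10 lay above the median of the 22. The log2 differences were 1.002 ± 0.40 (adjusted p = 0.222), 1.303 ± 0.48 (0.187) and 0.08 ± 0.47 (0.968), in a comparison where 1.29% of 11453 genes passed. Limma voom called Rag2 (1.99, adjusted p = 0.0291, over alternatives from 0.0291 to 0.222). B230118H07Rik, the gene overlapping both, did pass, at 43.9 ± 33.04 CPM against 8.07 ± 5.80 (2.42 ± 0.44, adjusted p = 0.00348). The p53(-/-) tumour had 435.6 CPM of Rag1, 108.5 of Rag2 and 259.5 of Dntt, the highest Rag1 and Rag2 of any tumour of the later run, and has no replicate.

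Tumour groups labelled MYCChr6 had the lowest medians of the later run. In 3 RERT2 D/AAA MYCChr6 tumours Rag1 was 0.18, 1.23 and 0.23 CPM, Rag2 0, 1.402 and 0, and Dntt 0, 1.402 and 0.23. These are at most 8 counts per library. Against RERT2 D/AAA tumours the fitted log2 differences were -7.58 ± 1.34 (adjusted p = 0.000485), -4.45 ± 1.41 (0.0448) and -7.49 ± 1.5005 (0.00188), and at such counts their size depends on the prior count of the fit. In this comparison 9.23% of 13708 genes passed, 5.65% as higher and 3.57% as lower. The Rag2 call was lost without replicate 1 (-3.88, adjusted p = 0.172) or replicate 3 (-3.93, 0.201) of the 3, without RERT2 D/AAA replicate 16 (-4.47, 0.0512) and without the low-count filter (-4.48, 0.0791). All 3 calls were lost in limma voom (adjusted p 0.659, 0.572 and 0.736), the highest over their alternatives, whose lowest were 1.67e-14, 0.000641 and 2.55e-11.

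Neither CD4-Cdc20(D/AAA) MYCChr6 tumour had a count for any of the 3 genes, in totals of 8009572 and 7507291. Over these raw totals, without the TMM factors, 3 counts would be 0.375 and 0.400 CPM. Both tumours had Trac (642 to 704 CPM) and Cd3e (599 to 640 CPM), and 1 of the 2 had DP markers at a summed 723.1 CPM. The 4 LCK-Cdc20(+/D) MYCChr6 tumours had Rag1 at 11.5, 62.3, 0.18 and 0.18 CPM, Rag2 at 0.65, 1.07, 0 and 0, and Dntt at 4.34, 7.93, 1.09 and 0.18.

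The 14 LCK-Cdc20(D/AAA) MYCChr6 tumours ranged from no transcript to levels above those of most RERT2 tumours. Medians were 1.36 CPM for Rag1, 0 for Rag2 and 0.39 for Dntt, and 2, 8 and 4 libraries had no count. Replicate 6 was highest for each gene, at 284.1, 40.0 and 154.4 CPM. Rag1 was above 10 CPM also in replicates 5, 10, 12 and 13 (54.9, 29.3, 18.9 and 16.1). Dntt fell relative to RERT2 D/AAA tumours (-3.01 ± 0.85, adjusted p = 0.0057), a call lost in limma voom (-6.21, adjusted p = 0.106, with alternatives down to 8.87e-08), while Rag1 (-1.94 ± 0.79, 0.0517) and Rag2 (-1.56 ± 0.81, 0.132) did not pass. For each gene 13 of 14 libraries lay below the median of the 22, and 35.3% of 11130 genes passed, 18.6% as higher and 16.7% as lower.

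Replicate 6 moved all 3 values. Without it the differences were -3.52 for Rag1 (adjusted p = 0.000352, alternatives up to 0.0873) and -3.47 for Rag2 (0.000699, alternatives up to 0.195), both of which then passed, and Dntt stood at -5.49. Rag1 also passed in DESeq2 (-1.92, adjusted p = 0.0285), in limma voom, and without RERT2 D/AAA replicate 8 or 11, and Rag2 in limma voom. These tumours differ from the RERT2 tumours both in the prefix and in MYCChr6, which this comparison by itself cannot tell apart. The 3 RERT2 D/AAA MYCChr6 tumours had medians of 0.23, 0 and 0.23 CPM for Rag1, Rag2 and Dntt. In the LCK D/AAA MYCChr6 tumours the medians were 1.36, 0 and 0.39 CPM, and the difference between these 2 groups was not tested. Between the D/AAA and +/D genotypes of LCK MYCChr6 tumours the differences were 0.64 ± 1.89 for Rag1 (adjusted p = 0.993) and 1.95 ± 2.03 for Dntt (0.981), and Rag2 was too low to test. In edgeR 0% of 12791 genes passed there, 653 had an unadjusted p under 0.05, and DESeq2 called 19 and limma voom 0.

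Other genes of the pathway also changed in LCK D/AAA MYCChr6 tumours, where 18.6% of all genes rose and 16.7% fell. Of the end joining genes 3 fell and none rose, Xrcc6 by 2.26 ± 0.23 and Lig4 by 1.36 ± 0.36, and of the 11 transcription factors 6 fell, Satb1 by 2.04 ± 0.58 and Runx1 by 1.62 ± 0.25, and Foxp1 rose by 0.69. Of 5 tested family X polymerases and TdT-interacting proteins 4 rose, Poll by 1.83 ± 0.53 and Polm by 1.25 ± 0.22. Ptcra, the partner of the rearranged Tcrb chain before DP, fell by 6.32 ± 0.78. Of 7 B lineage markers 4 were tested and all 4 rose (Cd79a by 5.06), at a summed 3.15 to 1315 CPM against 0.161 to 36.7 in RERT2 tumours. Markers this low in RERT2 tumours can pass the low-count filter through the LCK tumours alone. Of 5 DP markers 2 fell, Arpp21 by 3.78 ± 0.75 and Cd1d1 by 0.63, at a summed 14.44 to 2191 CPM, and replicates 5 and 13 with the highest sums (2191 and 2002) had far less Rag1 than replicate 6 with 1055. The part of other cells in these differences was not tested.

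In the RERT2 MYCChr6 tumours, where 5.65% of all genes rose and 3.57% fell, 1 of 8 end joining genes fell, Xrcc6 (-3.37 ± 0.37). Of the 11 transcription factors 3 fell, Satb1 (-2.94 ± 0.52), Bcl11b (-1.82) and Runx1 (-1.64), and 8 were not called. Of 5 DP markers 1 fell, Arpp21 (-8.02 ± 0.71), and 4 were not called. No gene of these lists was called higher. Of 7 B lineage markers 5 were tested and all 5 rose, at a summed 4.08, 235.8 and 294.5 CPM in the 3 tumours. Markers low in RERT2 D/AAA tumours can pass the low-count filter through the MYCChr6 tumours alone, so this count carries little weight. The lowest of the 3 sums lay within the range of the RERT2 D/AAA tumours given above. The tumour with the fewest B lineage transcripts, replicate 1, also had 1 Rag1 count and no count for Rag2 or Dntt. B230118H07Rik was listed at 0 in all 3.

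**Figure D4:**
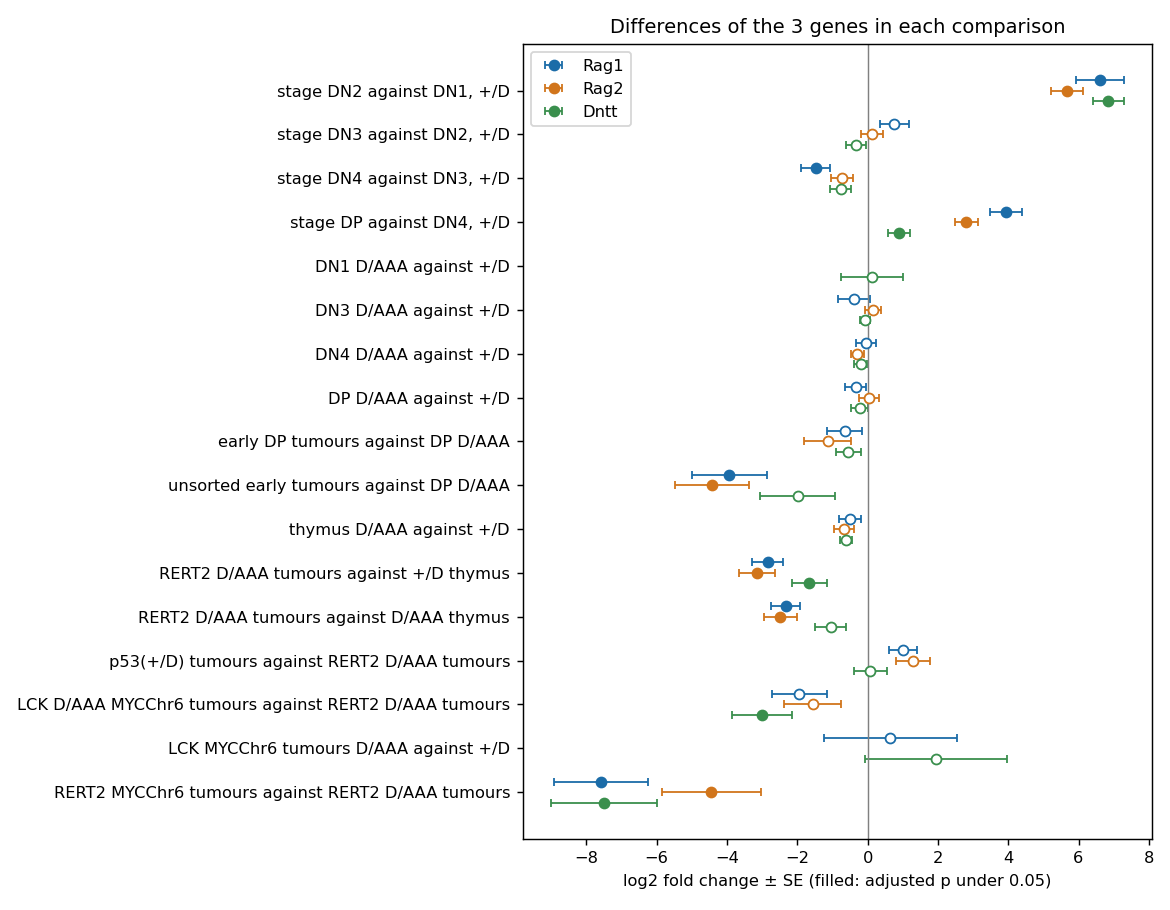
Log2 fold change of Rag1, Rag2 and Dntt in each comparison (horizontal axis), with bars of 1 SE from the edgeR fit and filled points where the adjusted p is under 0.05. The stage steps to DN2 and DP stand to the right, the RERT2 tumour and MYCChr6 comparisons to the left, and the genotype comparisons are all open.

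Within tumour groups, the relation of Rag1 with Rag2 rested on 2 libraries in RERT2 D/AAA and in p53(+/D) tumours. It held without the 2 farthest in LCK D/AAA MYCChr6 tumours, where 8 of 14 had no Rag2 count. Over the 22 RERT2 D/AAA tumours, Pearson's r of log2 CPM was 0.71 (permutation p = 0.00122, adjusted 0.00439) and Spearman's rho 0.36 (permutation p = 0.0958, adjusted 0.157). The adjustment pooled the r and rho tests of all 9 relations. Values of r without the 2 farthest libraries were adjusted over the 9 relations alone. Without replicates 8 and 11, farthest from the Rag1 median, r was 0.18 (permutation p = 0.442, adjusted 0.85), so the relation rests on those 2 tumours. Rag1 with Dntt gave r of -0.19 (permutation p = 0.269, adjusted 0.346) and rho of -0.08 (p = 0.716, adjusted 0.758). Rag2 with Dntt gave r of -0.12 (permutation p = 0.57, adjusted 0.641) and rho of -0.02 (p = 0.935, adjusted 0.935).

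In the 10 p53(+/D) tumours r of Rag1 with Rag2 was 0.71 (permutation p = 0.021, adjusted 0.0428) with rho of 0.60 (p = 0.0723, adjusted 0.13), and 0.30 without replicates 9 and 10. Rag2 with Dntt gave 0.76 (permutation p = 0.0124, adjusted 0.0372) with rho of 0.47 (p = 0.177, adjusted 0.245), and -0.005 without replicates 2 and 9. Rag1 with Dntt gave 0.52 (permutation p = 0.127, adjusted 0.191) with rho of 0.37 (p = 0.295, adjusted 0.354).

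In the 14 LCK D/AAA MYCChr6 tumours r of Rag1 with Rag2 was 0.93 (permutation p = 1e-05, the smallest the resamples can give, adjusted 0.00018) with rho of 0.84 (p = 0.00033, adjusted 0.00297), and it held without replicates 5 and 6 (0.90, adjusted 0.00846). Rag1 with Dntt (0.79, permutation p = 0.001, adjusted 0.00439, rho 0.62, adjusted 0.0428) and Rag2 with Dntt (0.88, permutation p = 0.00073, adjusted 0.00438, rho 0.63, adjusted 0.0428) did not pass without those 2 (0.57, adjusted 0.128, and 0.71, adjusted 0.0698). Rag2 had no count in 8 of these 14 tumours, and the median of Rag1 was 1.36 CPM. Many of the values behind these relations thus lie at or near the floor. Genes of a library share its depth and its mix of cells.

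**Figure D5:**
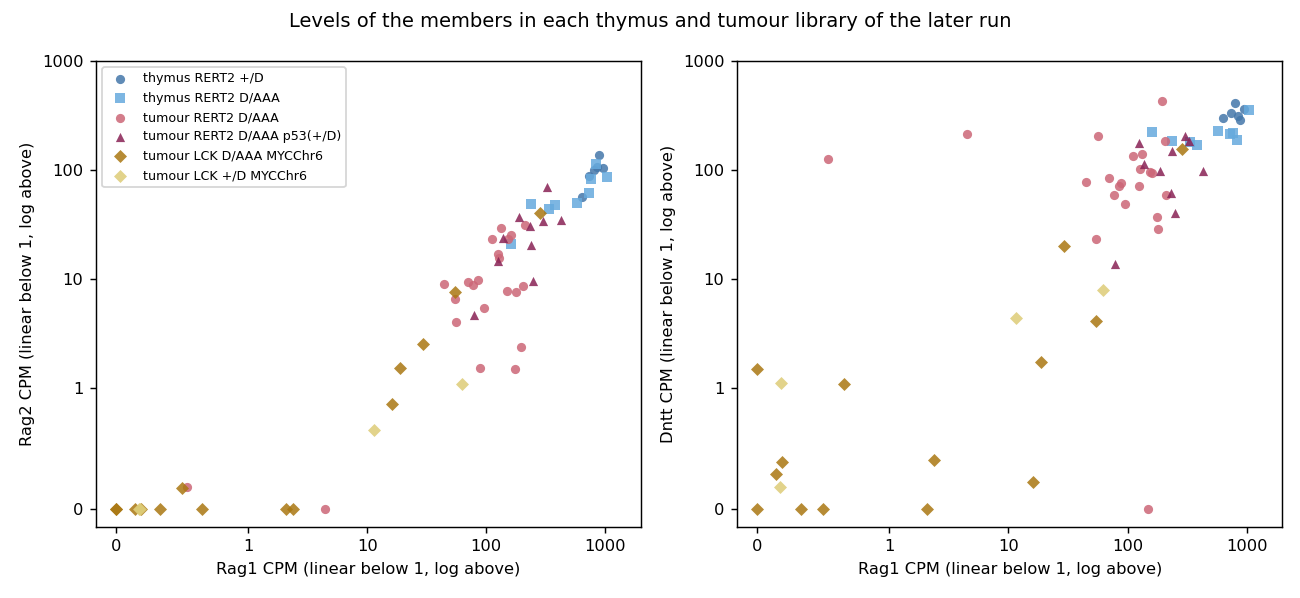
CPM of Rag1 (horizontal axis) against Rag2 and against Dntt (vertical axes) in thymus and tumour libraries of the later run, 1 point a library, all axes linear below 1 and logarithmic above. RERT2 D/AAA replicates 8 and 11 lie at low Rag1 with Dntt at 125.4 and 212.5 CPM, and replicate 16 at 0 Dntt with Rag1 at 148.2.

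Across the 37 sorted +/D libraries, the genes whose log2 CPM ran most like that of each member were ranked among 9816 protein-coding genes. These values describe stage patterns over shared libraries and carry no test. For Rag1 they were Dgkg (r = 0.958), Tcf12 (0.957), Rag2 (0.953), B230118H07Rik (0.945) and Sox4 (0.943), with Dntt at rank 61 (0.867). For Rag2 they were Dgkg (0.970), Sox4 (0.955), Gfi1 (0.954), Rag1 (0.953) and Arpp21 (0.952), with Dntt at rank 12 (0.944). For Dntt they were Ptov1 (0.978), Arpp21 (0.967), Zfp422 (0.963), Tmem151b (0.962) and Tspan2 (0.959), with neither Rag gene among the 5. Against Rag1, its chromosomal neighbours Traf6, Commd9 and Prr5l had r of 0.516, 0.043 and -0.659.

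Over the 22 RERT2 D/AAA tumours and 8388 genes the pattern was another one. These r carry no test either. In the same tumours r of Rag1 with Rag2 fell from 0.71 to 0.18 without replicates 8 and 11. The ranking was not repeated without them, so it may rest on those tumours too. Rag1 ran most like B230118H07Rik (0.844), Ralgps2 (0.833), Slc16a5 (0.821), A430033K04Rik (0.809) and Ccdc92 (0.808), with Rag2 at rank 21. Rag2 ran most like Ptprf (0.766), Dnah17 (0.758), Notch3 (0.752), Matk (0.736) and Ralgps2 (0.732), and Dntt like Sdc1 (0.814), Gfra1 (0.779), Moap1 (0.753) and Rps6ka2 (0.749).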

How the data were processed

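Bulk RNA-seq of 157 mouse libraries was analysed. Per the labels' protocols, RNA came from at least 5000 sorted cells per progenitor population, or a larger number from lymphomas. Per the submitters' processing notes, STAR 2.5.3a, RSEM 1.3.0 and FastQC were used with GRCm38. The authors deposited expected counts per gene, all whole numbers, in 1 table per run. Neither annotation release nor strand setting is given here. Names and positions came from GENCODE M21 and promoter windows from RefSeq.

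Genes passing filterByExpr were scaled by TMM and compared within a run by the robust quasi-likelihood test of edgeR 4.0.16 under R 4.3.3, on both sides. P-values were Benjamini-Hochberg adjusted over all genes tested, with a threshold of 0.05. The fits were tested on simulated data. Stage comparisons shared 1 fit of 5 +/D groups, and other comparisons used their 2 groups. SE is the log2 difference divided by the square root of F. Relations used a prior count of 2 and up to 100000 resamples. The members always, up to 2 genes a direction per list and the 5 most similar genes per member were named. A gene of the DP marker list and 1 similar gene are not reported here, and DP marker sums and counts leave out the former. Lists are named in the text. No pair of libraries was identical. The members and lists were chosen with earlier results of these data known. Alternatives were DESeq2 1.42.0, limma 3.58.1 voom, other scaling and filters, and libraries left out.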

Additional observations from a re-analysis of the deposited data

Results flagged for a closer look

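In 9 of the 42 combinations of a gene and a group of 4 to 10 libraries, 1 library lay apart from the rest of its group by more than Dixon's criterion allows. The criterion's rate of about 1 of 20 holds for normally spread values, and CPM values are skewed. All 9 flags are the highest library of their group, and some share a library, so their number cannot be judged against that rate. DN1 D/AAA replicate 8 had 153.7 CPM of Rag1 (others 0 to 1.98), 245.9 of Rag2 (0 to 2.26) and 338.1 of Dntt (4.65 to 32.7), from the library of 21199 counts. Unsorted early tumour replicate 2 had 134.0 CPM of Rag1, against 0 to 12.9 in the others. DN1 +/D replicate 6 had 6.43 CPM of Rag2 (0 to 1.404). Replicate 7 of the p53(+/D) tumours had 70.19 CPM of Rag2 (4.63 to 37.3). Dntt was high in DN4 +/D replicate 2 (1664 CPM, others 715 to 1086), early DP tumour replicate 1 (1955, others 592 to 973) and D/AAA thymus replicate 4 (357.7, others 171 to 226.5).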

How the results depend on the processing

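No paired analysis was possible because the labels give no replicate numbers. Of 469 alternatives to the 51 tested results, 418 kept direction and side of the threshold, and 19 passed where the reported fit did not. Another 11 no longer passed and 21 changed sign. The 51 include the genotype by stage test of each gene, which has no direction and kept its side of the threshold. No sign change concerned a difference that passed. The rises to DN2 and DP of Rag1 and Rag2 and their falls in unsorted early and RERT2 D/AAA tumours kept their calls throughout. Alternatives without single libraries of groups over 5, and without DP D/AAA libraries 1 and 5, were chosen after seeing the data. Depth limits the DN1 and MYCChr6 tumour values, many of which are under 3 counts. The causes of the changes were not tested.

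With voom, DN4 against DN3 gave -0.72 for Rag2 and -0.79 for Dntt, unsorted early tumours -7.23 for Dntt, p53(+/D) tumours 1.99 for Rag2, LCK tumours -5.39, -4.11 and -6.21 for Rag1, Rag2 and Dntt, and RERT2 MYCChr6 tumours -7.14, -4.40 and -7.22. Its genotype differences with changed sign were -0.13 for Dntt at DN1, -0.081 for Rag2 at DN3, 0.10 for Rag1 at DN4, and -0.22 and -1.32 for Rag1 and Dntt in LCK tumours. With DESeq2, Dntt was -1.09 in tumours against D/AAA thymus (-1.09 also with relative log expression factors) and -0.63 between LCK genotypes, and Rag1 was -1.92 in LCK tumours. With only 2 stages, DN4 against DN3 gave -0.74 and -0.78 for Rag2 and Dntt. With all earlier groups in 1 fit, values were -1.41 (Rag1, DN4 against DN3), 0.79 (Dntt, DP against DN4), -1.997 (Dntt, unsorted early), -0.19 (Dntt, DN1 genotype) and -0.0101 (Rag2, DP genotype). Without the filter, Dntt was 0.80 at DP against DN4 and Rag2 -4.48 in RERT2 MYCChr6 tumours. Without shallow libraries Dntt was -0.46 at DN1. Within the first label block, which holds every +/D sorted library, the genotype differences were -0.39 (Dntt, DN1), 0.0104 (Dntt, DN3), -0.39 (Rag2, DP) and -1.08 (Rag1, DP, against -0.34).

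Leaving out 1 library at a time gave ranges of -0.46 to 0.93 (Dntt, DN1), -0.0032 to 0.28 (Rag2, DN3), -0.18 to 0.0104 (Dntt, DN3), -0.10 to 0.13 (Rag1, DN4) and -0.057 to 0.14 (Rag2, DP) for genotype. They were -3.36 to -1.86 for Dntt in unsorted early tumours, -1.12 to -0.92 for Dntt in tumours against D/AAA thymus, -3.52 to -1.92 and -3.47 to -1.58 for Rag1 and Rag2 in LCK tumours, -0.97 to 2.92 and -0.58 to 2.83 for Rag1 and Dntt between LCK genotypes, and -8.88 to -3.88 for Rag2 in RERT2 MYCChr6 tumours. With a pseudocount of 5 CPM the Rag2 to Rag1 ratio differed by 0.25 in tumours against thymus and by -0.15 with p53(+/D). Without the 2 farthest samples r was 0.18 (Rag1, Rag2) and 0.053 (Rag2, Dntt) in RERT2 tumours, 0.30 and -0.0046 in p53(+/D) tumours, and 0.57 (Rag1, Dntt) and 0.71 (Rag2, Dntt) in LCK tumours.

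Over the alternatives the number of genes passing ran from 0 to 15 (0 in the reported fit) at DN1, 0 to 13 (0) at DN3, 1 to 26 (1) at DN4 and 1 to 118 (1) at DP for genotype, 0 to 2125 (0) for early DP tumours, 2852 to 7094 (3468) for unsorted ones, 0 to 49 (0) for thymus, 122 to 552 (148) with p53(+/D), 3817 to 7669 (3934) and 0 to 19 (0) for LCK tumours and their genotype, 669 to 1979 (1265) for RERT2 MYCChr6 tumours, and 400 to 802 (664) from DN2 to DN3 and 1361 to 3263 (2291) from DN3 to DN4.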
